A study of Mus musculus with 18 samples.

Results

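A set of 34 genes of stromal cells, collagen fibres and the contractile machinery was followed in mouse macrophage cultures. Members were found by gene symbol, and all 34 were present among the 43309 genes of the deposited table. The cultures were macrophages grown from the bone marrow of C57BL/6 mice for 7 days in α-MEM with 10% serum and 10 ng/ml M-CSF. The 3 genotypes were wild type (WT), a PGRN knockout, which lacks progranulin (gene Grn), and a Myeloid 14-3-3e knockout of the adaptor protein 14-3-3ε (gene Ywhae). Each genotype was driven for 18 h either to an M1 state, by 100 ng/ml LPS and 20 ng/ml interferon-γ, or to an M2 state, by 20 ng/ml IL-4, and 3 libraries of total RNA were sequenced for each of the 6 groups. No group was left unstimulated. The driver of the myeloid knockout and the number of mice behind a group's libraries are not stated in the labels, so the p-values below measure only the spread between these libraries, which may be technical.

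Collagens I, III and V build the fibrils of connective tissue, collagen VI forms a beaded network around cells, and fibrillin microfibrils carry elastin. Fibroblasts, osteoblasts and other stromal cells are the main makers of these proteins, and lysyl oxidases cross-link them outside the cell. Smooth muscle actin and its partners mark contractile stromal cells such as myofibroblasts, and marrow holds stromal cells that, like macrophages, adhere to plastic. In bulk RNA, fewer cells of a type and less RNA of a gene per cell cannot be told apart.

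Values are normalized counts, taken back from the log2 scale of the deposited table. Whole reads could be recovered, from 5157638 in WT M1 replicate 1 to 105315616 in 14-3-3ε knockout M1 replicate 1. Ribosomal RNA-like genes held 12.4% of the reads in WT M2 replicate 3, 1.61% in WT M1 replicate 2 and at most 0.114% elsewhere. Grn averaged 88266 in WT and 313 in the PGRN knockout in M1, and 31336 and 26.9 in M2. Ywhae was reduced, not lost, in the 14-3-3ε knockout, from 9305 to 5647 in M1 (log2 difference -0.72 ± 0.08) and from 8739 to 4860.2 in M2 (-0.85 ± 0.08). All 10 macrophage markers had reads in every group, and Csf1r, the M-CSF receptor, lay between 12249 and 31856 in all 18 libraries.

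Members together took a sizeable share of all reads. In M1 the share was 2.64 to 4.4% in WT, 1.95 to 2.21% in the PGRN knockout and 4.6 to 5.8% in the 14-3-3ε knockout, from the lowest to the highest library. In M2 it was 3.37 to 5.33%, 2.49 to 3.01% and 5.63 to 6.76%. In both states each PGRN knockout library lay below, and each 14-3-3ε knockout library above, all WT libraries. The 5 fibrillar collagen genes alone held a median of 1.78% of the reads of WT M1. These sums are dominated by a few abundant genes and were not tested.

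**Figure D1:**
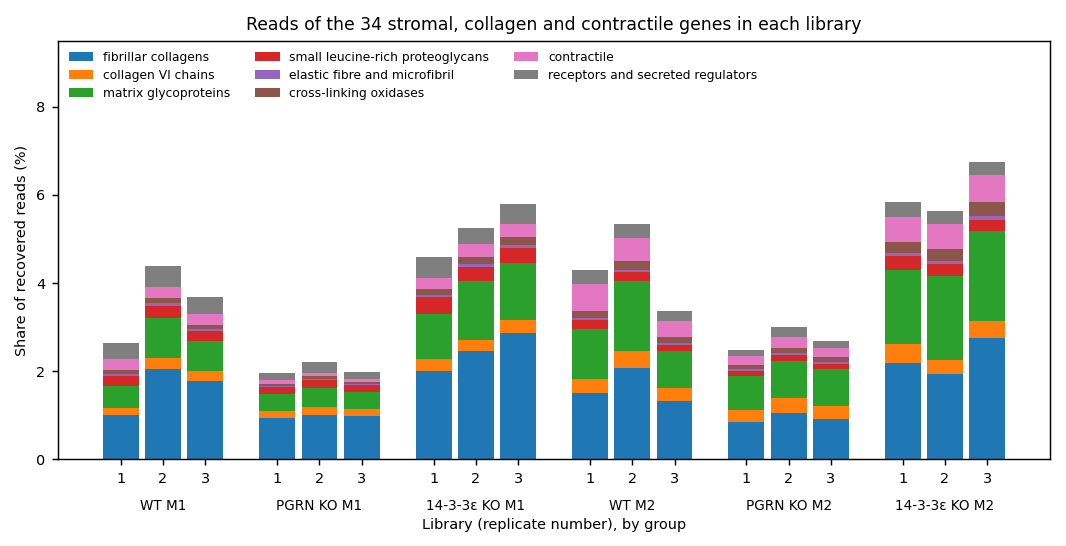
Share of all recovered reads (%, vertical axis) taken by the 34 genes in each of the 18 libraries, divided by the role of the gene. PGRN knockout libraries lie between 1.95 and 3.01% and 14-3-3ε knockout libraries between 4.60 and 6.76%.

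Levels of different genes were compared per length, as recovered reads per kilobase of annotated exon, scaled to the depth of the library (RPKM). Col1a1 stood highest in WT M1 with 863 ± 276 RPKM (SD, n = 3), followed by Sparc with 734 ± 187 and Acta2 with 465 ± 56.9. Col1a1 and Sparc did not differ by more than their spread. In WT M2, Acta2 came first with 1241 ± 311 RPKM, then Col1a1 with 995 ± 293 and Sparc with 758 ± 196, and neighbours in this order did not differ by more than their spread. Elastin (Eln) was last of the 34 in both states, with 0.0691 ± 0.0344 RPKM in M1, on 2 to 12 reads per library.

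Differences between groups were tested with limma on the log2 values of 21336 genes, in a fit of all 6 groups. They are given as log2 difference ± standard error, with 3 libraries per group and p adjusted by Benjamini-Hochberg over all genes tested, and a gene passed when that p was under 0.05. All 34 members passed the filter on low values and were tested. Where a call against WT changed when 1 library was left out, or in another fit, the adjusted p found then stands beside most of the members described. Genes outside the 34, named below from other gene lists, were not followed in these runs. Their calls rest on the fit of all libraries. The shares over all genes given below for each comparison apply to the counts of those lists as well.

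Loss of PGRN went with lower levels of most of the set. In M1, 20 of 34 members fell against WT, 0 rose and 14 did not pass, where 11.1% of all genes fell and 14.2% rose. The members' median log2 difference was -0.78, against 0.01 over all genes. In M2, 19 fell, 1 rose and 14 did not pass, where 8.3% of all genes fell and 11.1% rose, with medians of -0.69 and 0. Every knockout library lay below every WT library for 19 members in M1 and 23 in M2, as for 13.9% and 17.9% of all genes.

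The 14-3-3ε knockout moved fewer members, most of them upward. In M1, 10 rose against WT, 4 fell and 20 did not pass, where 12% of all genes rose and 9.31% fell. In M2, 5 rose, 2 fell and 27 did not pass, where 3.32% of all genes rose and 3.37% fell. The members' medians were 0.32 and 0.24, against 0.07 and 0 over all genes. These counts depend on single libraries and on the estimate of spread. In M1 they were 17 higher and 5 lower without WT replicate 2, and 1 and 2 in a fit of just these 2 groups. Over all genes, 2554 higher and 1987 lower became 3583 and 2875, and 220 and 165, in these runs. In M2 the members' counts were 0 and 2 without WT replicate 3. They were 1 and 2 without knockout replicate 1, and 3 and 1 without knockout replicate 2. Over all genes, 709 higher and 718 lower became 321 and 256, 277 and 301, and 370 and 347.

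Set directly against each other, the knockouts differed in most members. WT libraries entered these tests only through the shared estimate of spread. Fits of just the 2 knockout groups gave 29 higher in M1 and 24 in M2, with 0 lower. In M1, 30 members were higher in the 14-3-3ε knockout than in the PGRN knockout and 0 lower, with 12.5% of all genes higher and 12.5% lower. The exceptions were Dcn, Lum, Eln and Pdgfra, which did not pass. In M2, 24 were higher and 0 lower, with 8.29% of all genes higher and 9.92% lower. The members' medians were 1.12 and 0.98, against 0.04 and -0.00 over all genes. The comparisons of each knockout with WT share their WT libraries, so their values are only set side by side.

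**Figure D2:**
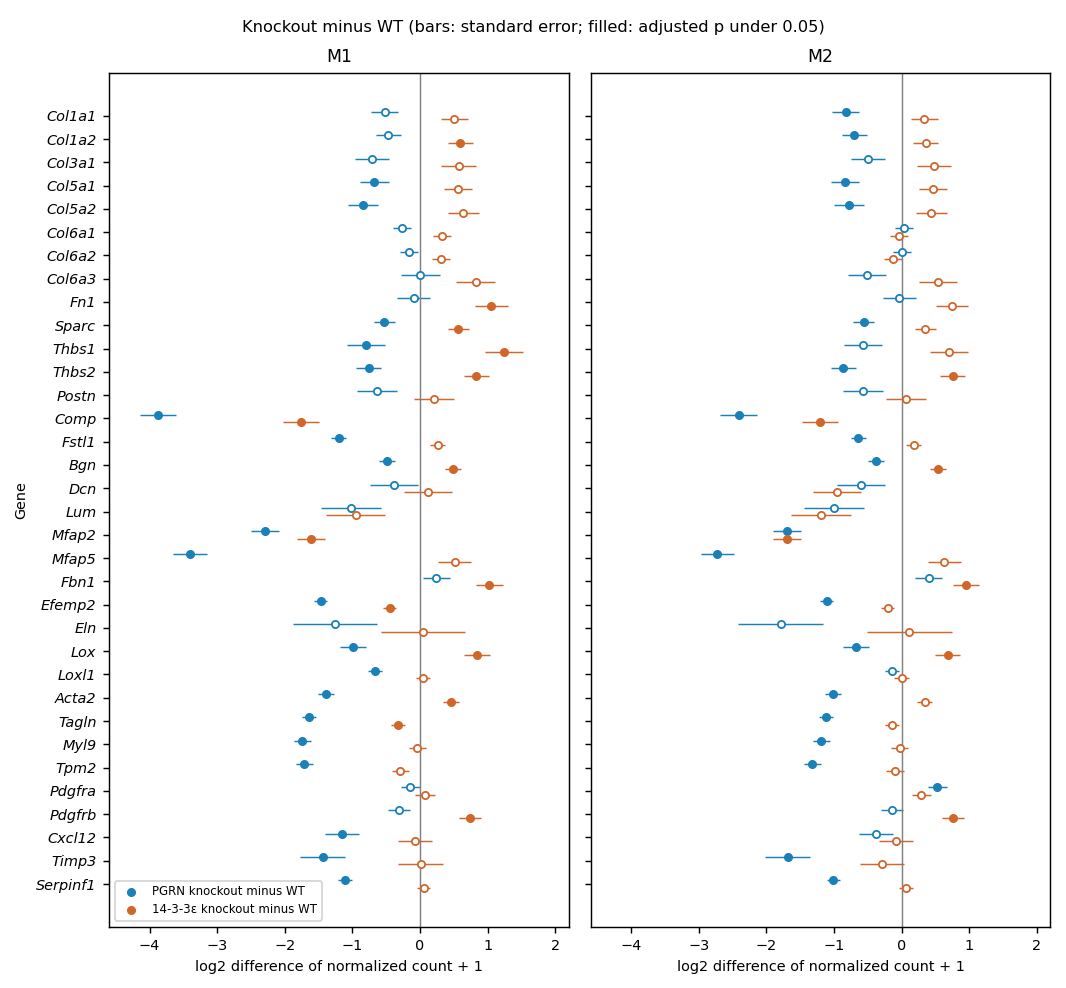
Log2 difference (horizontal axis) of each of the 34 genes between a knockout and WT, in M1 and in M2, with standard error bars; filled points passed the test. Contractile genes, Comp, Mfap2 and Mfap5 lie far below 0 for the PGRN knockout, and Comp and Mfap2 also for the 14-3-3ε knockout.

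The contractile group held Acta2 (smooth muscle α-actin, ENSMUSG00000035783, chr19:34241090-34255590 on GRCm38), Tagln (transgelin, an actin-binding protein, chr9:45929619-45936058), Myl9 (a regulatory myosin light chain, chr2:156775420-156781658) and Tpm2 (β-tropomyosin, chr4:43514711-43523765). All 4 fell in the PGRN knockout in both states. Promoter windows from 250 bases before to 50 bases after the RefSeq start (GRCm38.p6) are shown for 3 of them because the genes fell together, with any exact match to the CArG box, the motif bound by serum response factor, in capitals. Its consensus is CC, then 6 bases that are each A or T, then GG.
Myl9 (chr2:156775214-156775513, plus strand): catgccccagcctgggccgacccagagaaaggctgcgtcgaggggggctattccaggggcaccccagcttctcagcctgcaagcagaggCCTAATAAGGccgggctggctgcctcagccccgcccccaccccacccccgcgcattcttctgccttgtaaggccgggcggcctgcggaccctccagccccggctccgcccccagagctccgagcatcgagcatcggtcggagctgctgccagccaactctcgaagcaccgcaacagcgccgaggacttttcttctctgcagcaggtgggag
Acta2 (chr19:34255324-34255623, minus strand): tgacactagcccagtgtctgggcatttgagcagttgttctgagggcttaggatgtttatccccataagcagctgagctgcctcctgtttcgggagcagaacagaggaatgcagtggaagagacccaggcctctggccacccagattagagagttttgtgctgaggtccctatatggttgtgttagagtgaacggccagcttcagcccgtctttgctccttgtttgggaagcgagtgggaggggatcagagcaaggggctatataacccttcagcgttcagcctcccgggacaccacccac
Tpm2 (chr4:43523505-43523804, minus strand): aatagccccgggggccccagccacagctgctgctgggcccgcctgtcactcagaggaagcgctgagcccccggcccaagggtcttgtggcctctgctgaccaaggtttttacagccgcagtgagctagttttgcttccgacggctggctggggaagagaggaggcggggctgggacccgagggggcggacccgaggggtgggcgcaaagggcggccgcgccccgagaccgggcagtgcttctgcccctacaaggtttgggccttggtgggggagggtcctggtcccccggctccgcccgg
Searched on both strands, the exact consensus occurred in the Myl9 window, 161 bases before the start. Of the members whose windows were searched, 1 of 21 held it, as did 1.63% of 32851 mouse windows of this length. Lox and Pdgfrb were left out of the search. The Acta2 window held 2 runs that are 1 base off the consensus, ccctatatgg 84 and ccttgtttgg 34 bases before the start, and Myl9 held another, ccttgtaagg, 99 bases before. With 1 base off allowed, the motif occurred in 6 of the 21 members and in 21.1% of all windows, and the Tpm2 window held no such run. Tagln has no window in the table. A match describes the letters of the window and is not a site shown to be used.

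In M1, Acta2 stood at 20570.2, 24961 and 23172 in WT, 8609, 8170 and 9286 in the PGRN and 28320, 34648 and 31574 in the 14-3-3ε knockout. The 3 genotypes did not overlap. Against WT, Acta2 fell by 1.40 ± 0.12 in the PGRN knockout (adjusted p = 6.63e-07), a 2.63-fold drop, and rose by 0.46 ± 0.12 in the 14-3-3ε knockout (adjusted p = 0.0125). In M2 it stood at 62205, 53864 and 44236 in WT, 23410.5, 28761 and 26583 in the PGRN and 66016, 64791 and 69981 in the 14-3-3ε knockout. Again no library of the PGRN knockout reached the WT libraries, with a difference of -1.02 ± 0.12 (adjusted p = 1.73e-05). The 14-3-3ε knockout libraries lay above those of WT, but their difference of 0.34 ± 0.12 did not pass (adjusted p = 0.0941).

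Myl9 stood at 10443, 9578 and 9284 in WT M1, 2791, 3469 and 2568 in the PGRN and 10138, 8804 and 9577 in the 14-3-3ε knockout. Only the PGRN knockout stood clear of WT, and Myl9 fell by 1.74 ± 0.13 there (adjusted p = 1.47e-07). Tpm2 fell by 1.71 ± 0.13 and Tagln fell by 1.64 ± 0.10 in PGRN knockout M1 (adjusted p = 1.86e-07 and 4.98e-08). In M2 the differences of Myl9, Tpm2 and Tagln were -1.19 ± 0.13, -1.32 ± 0.13 and -1.12 ± 0.10 (largest adjusted p = 7.51e-06). Tagln also fell by 0.32 ± 0.10 in 14-3-3ε knockout M1 (adjusted p = 0.0333), while Myl9 and Tpm2 did not pass there (-0.04 ± 0.13 and -0.29 ± 0.13). In 14-3-3ε knockout M1, Acta2 did not pass in a fit of just the 2 groups (adjusted p = 0.0966) and without WT replicate 1 or 14-3-3ε knockout replicate 2 (0.0506 to 0.0643), and Tagln did not pass in a fit of just the 2 groups (adjusted p = 0.166), by library totals (0.18) and without WT replicate 1 or 3 or 14-3-3ε knockout replicate 1 or 3 (0.0598 to 0.14). Tpm2 passed there without the 2 libraries with ribosomal RNA-like reads (adjusted p = 0.0383) and without WT replicate 2 (0.0428), and Acta2 passed in M2 without WT replicate 1 (adjusted p = 0.0468).

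Of 19 other contractile and actin genes, 12 fell and 2 rose in PGRN knockout M1, and 8 fell and 1 rose in M2. Their medians were -0.57 and -0.37. The smallest p-values in M1 belonged to Lmod1 (leiomodin, -1.71 ± 0.14), Actg2 (smooth muscle γ-actin, -1.52 ± 0.15), Cnn2 (calponin, -1.25 ± 0.13) and Tpm1 (α-tropomyosin, -0.99 ± 0.10), with a largest adjusted p of 6.76e-06. The gene in M2 that went up was Mrtfa, which encodes a coactivator of serum response factor and rose by 0.49 ± 0.08 (adjusted p = 0.000366). Under 14-3-3ε loss 6 rose and 0 fell in M1, led by Cald1 (caldesmon, 0.86 ± 0.14, adjusted p = 0.000678), and 2 rose and 0 fell in M2.

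**Figure D3:**
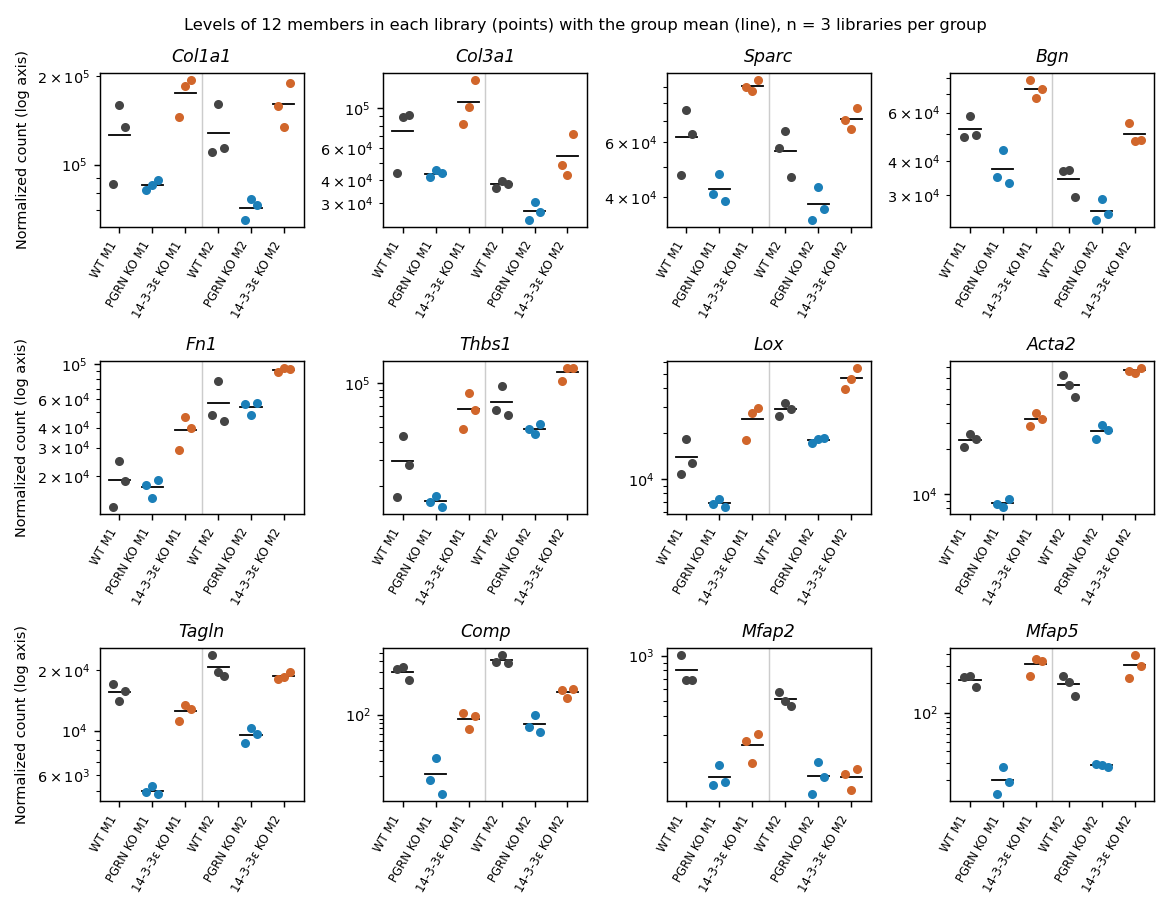
Normalized count (log axis, with its own range in each panel) of 12 of the 34 genes in each library (points) by group, n = 3 libraries per group, with the group mean as a line. Acta2, Tagln, Comp, Mfap2 and Mfap5 are lower in each PGRN knockout library than in any WT library of the same state.

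Fibrillar collagen genes were the most abundant by read share, and their median difference in the PGRN knockout, -0.68 in M1 and -0.78 in M2, was smaller than that of the contractile genes, -1.68 and -1.15. Col1a1 (ENSMUSG00000001506, chr11:94936224-94953042) and Col1a2 (chr6:4504814-4541544) encode the chains of collagen I, Col3a1 (chr1:45311538-45349706) that of collagen III, and Col5a1 and Col5a2 chains of collagen V, which limits the width of collagen I fibrils. In the PGRN knockout 2 of the 5 fell in M1 and 4 in M2. In the 14-3-3ε knockout 1 rose in M1 and 0 in M2. The RefSeq window of Col1a2 is shown because Col1a2 kept close to a fixed ratio to Col1a1, with CCAAT, searched on both strands, in capitals.
Col1a2 (chr6:4505368-4505667, plus strand): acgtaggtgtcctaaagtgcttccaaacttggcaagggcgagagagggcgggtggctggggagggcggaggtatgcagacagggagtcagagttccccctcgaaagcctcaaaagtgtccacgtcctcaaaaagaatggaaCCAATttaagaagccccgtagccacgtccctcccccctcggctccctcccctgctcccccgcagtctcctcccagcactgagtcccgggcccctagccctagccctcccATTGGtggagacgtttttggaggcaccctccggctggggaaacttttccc
A match begins 109 bases before the start and another at the start itself. CCAAT occurs in 37.4% of all windows and in those of 5 of the 21 members.

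Col1a1 stood at 85487, 159254 and 134826 in WT M1, 81599, 85196 and 88722 in the PGRN and 144900, 185975 and 194188 in the 14-3-3ε knockout. WT replicate 1, the shallowest library of the series, lay among the PGRN knockout values, and both knockouts overlapped WT. In the fit of all libraries neither difference passed (-0.52 ± 0.20, adjusted p = 0.066, and 0.50 ± 0.20, adjusted p = 0.0832). In M2 the values were 110149, 160925 and 113658 in WT, 64769.9, 76456 and 72630.2 in the PGRN and 158142, 134184 and 189386 in the 14-3-3ε knockout. The PGRN knockout lay wholly below WT, where Col1a1 fell by 0.83 ± 0.20 (adjusted p = 0.00773), and the 14-3-3ε knockout overlapped WT (0.33 ± 0.20, adjusted p = 0.342). In M1, Col1a1 passed for the PGRN knockout with a filter at 5 CPM (adjusted p = 0.0487) and without WT replicate 1 (0.00405) and for the 14-3-3ε knockout without the 2 libraries with ribosomal RNA-like reads (adjusted p = 0.019) and without WT replicate 2 (0.0177). Between the knockouts, Col1a1 was higher in the 14-3-3ε knockout by 1.03 ± 0.20 in M1 and 1.16 ± 0.20 in M2 (adjusted p = 0.00107 and 0.000526).

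Col1a2 ran beside Col1a1, at 74589, 142447 and 125079 in WT M1, 77024, 83991 and 77168 in the PGRN and 147420, 167856 and 184283 in the 14-3-3ε knockout. It rose by 0.59 ± 0.18 in 14-3-3ε knockout M1 (adjusted p = 0.0327), but did not pass in a fit of just the 2 groups (adjusted p = 0.194) and without WT replicate 1 or 14-3-3ε knockout replicate 2 or 3 (0.0906 to 0.135). In PGRN knockout M1 it passed without WT replicate 1 (adjusted p = 0.00079). In M2 it stood at 98664, 130518 and 102276 in WT, 62851, 73339 and 66299 in the PGRN and 143471, 120348 and 158872 in the 14-3-3ε knockout. There it fell by 0.70 ± 0.18 in the PGRN knockout (adjusted p = 0.013), whose libraries all lay below WT, and did not pass without WT replicate 2 or PGRN knockout replicate 1 (adjusted p of 0.0533 to 0.0592).

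Col3a1 stood at 43936, 89906 and 91325 in WT M1, 41577, 45389.5 and 43712 in the PGRN and 81856, 101626 and 142453 in the 14-3-3ε knockout, with the low WT replicate 1 among the PGRN knockout values. Its M2 values were 36443, 39792 and 38284 in WT, 24285, 30388 and 26667 in the PGRN and 48874, 42774 and 71818 in the 14-3-3ε knockout. In M2 the 3 genotypes did not overlap, yet no difference of Col3a1 from WT passed in either state (smallest adjusted p = 0.0557). For the PGRN knockout it passed in M1 with a filter at 5 CPM (adjusted p = 0.0356) and without WT replicate 1 (0.00235), and in M2 in a fit of just the 2 groups (adjusted p = 0.00956). The collagen V genes fell in the PGRN knockout in both states, Col5a1 by a log2 difference of -0.68 ± 0.21 in M1 and -0.84 ± 0.21 in M2, and Col5a2 by -0.84 ± 0.22 and -0.78 ± 0.22 (largest adjusted p = 0.0275). Of these 4 calls, only that of Col5a1 in M2 held in each alternative run. Col5a1 in M1 did not pass in a fit of just the 2 groups (adjusted p = 0.0751), without the 2 libraries with ribosomal RNA-like reads (0.11) and without WT replicate 2 or 3 or PGRN knockout replicate 1 or 2 (0.073 to 0.102). Col5a2 did not pass in M1 in a fit of just the 2 groups (adjusted p = 0.0722) and without the 2 libraries with ribosomal RNA-like reads (0.057), nor in M2 without WT replicate 2 or PGRN knockout replicate 1 or 3 (adjusted p of 0.0611 to 0.0828). In 14-3-3ε knockout M1, Col5a1 passed with a filter at 5 CPM (adjusted p = 0.0461), without the 2 libraries with ribosomal RNA-like reads (0.0286) and without WT replicate 2 or 14-3-3ε knockout replicate 1 (0.0182 to 0.0252), and Col5a2 passed with a filter at 5 CPM (adjusted p = 0.0353), without the 2 libraries with ribosomal RNA-like reads (0.0191) and without WT replicate 2 or 3 or 14-3-3ε knockout replicate 1 (0.0154 to 0.0487).

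The median differences of the 3 collagen VI genes in the PGRN knockout were -0.16 in M1 and 0.00 in M2. In the fit of all libraries, none of Col6a1, Col6a2 and Col6a3 passed against WT in either knockout or state, with adjusted p of 0.0538 or more. In 14-3-3ε knockout M1, however, Col6a1 passed without the 2 libraries with ribosomal RNA-like reads (adjusted p = 0.0277) and without WT replicate 2 (0.0243), Col6a2 passed without the 2 libraries with ribosomal RNA-like reads (adjusted p = 0.039) and without WT replicate 2 (0.036) and Col6a3 passed with a filter at 5 CPM (adjusted p = 0.0335), without the 2 libraries with ribosomal RNA-like reads (0.0253) and without WT replicate 2 or 3 (0.0207 to 0.0417). In PGRN knockout M1, Col6a1 passed without WT replicate 1 (adjusted p = 0.011) and Col6a2 passed without WT replicate 1 (adjusted p = 0.0242). Col6a1 stood at 27021, 30087 and 29338 in WT M2 and 27104, 32818 and 28621 in PGRN knockout M2, which overlap. Its difference was 0.03 ± 0.13, and that of Col6a2 was 0.00 ± 0.13.

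Enzymes and helpers of collagen processing fell with the fibrillar collagens in the PGRN knockout. Of 18 such genes, 12 fell and 1 rose in M1, and 11 fell and 1 rose in M2. Leading in M1 were Pcolce (an enhancer of procollagen cleavage, -0.84 ± 0.10), P4ha2 (a subunit of prolyl 4-hydroxylase, -0.98 ± 0.12), Crtap (a partner of prolyl 3-hydroxylase, -0.58 ± 0.08) and Bmp1 (procollagen C-proteinase, -0.61 ± 0.08), with a largest adjusted p of 6.51e-05. The 14-3-3ε knockout had 9 higher and 1 lower in M1 and 4 and 2 in M2. Plod1, a lysyl hydroxylase, was among the lower ones in both states (-0.65 ± 0.08 and -0.42 ± 0.08, adjusted p = 9.18e-05 and 0.00584).

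Matrix glycoproteins held the steepest drop of the set in M1. Comp (cartilage oligomeric matrix protein, a relative of the thrombospondins, ENSMUSG00000031849, chr8:70373558-70382066) stood at 326, 344 and 244 in WT M1, 18.4, 32.4 and 12.6 in the PGRN and 104, 69.4 and 95.2 in the 14-3-3ε knockout. The genotypes were well apart, and the PGRN knockout values rest on 9, 13 and 27 reads. Comp was 14.6-fold lower in the PGRN knockout (-3.87 ± 0.27, adjusted p = 1.17e-07) and fell by 1.76 ± 0.27 in the 14-3-3ε knockout (adjusted p = 0.000549). In M2 it stood at 394, 474 and 378 in WT, 72.7, 99.1 and 62.8 in the PGRN and 189, 153 and 195 in the 14-3-3ε knockout, the same order of genotypes without overlap. The differences from WT were -2.41 ± 0.27 and -1.21 ± 0.27 (adjusted p = 1.23e-05 and 0.014). For the 14-3-3ε knockout in M2, Comp did not pass without 14-3-3ε knockout replicate 2 (adjusted p = 0.0621).

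Thbs1, Thbs2, Fn1 and Sparc were the glycoproteins that rose in 14-3-3ε knockout M1. Thbs1 (thrombospondin-1, an activator of latent TGF-β) stood at 16891, 44105 and 27839 in WT M1, 15684, 17286 and 14503 in the PGRN and 48584, 85557 and 65286 in the 14-3-3ε knockout. WT spread widely, and its lowest library lay among those of the PGRN knockout. Thbs1 rose by 1.24 ± 0.28 in the 14-3-3ε and fell by 0.80 ± 0.28 in the PGRN knockout (adjusted p = 0.00794 and 0.0483). Thbs2, another thrombospondin, rose by 0.83 ± 0.19, and Sparc (osteonectin, which binds collagen), rose by 0.57 ± 0.15 (adjusted p = 0.00678 and 0.016). In PGRN knockout M1 both fell (-0.76 ± 0.19 and -0.53 ± 0.15, adjusted p = 0.00695 and 0.0177). Thbs2 also rose in 14-3-3ε knockout M2, by 0.75. Among other runs, that rise did not pass in a fit of just the 2 groups (adjusted p = 0.0569) and without WT replicate 3 (0.11). Thbs1 in PGRN knockout M1 did not pass in a fit of just the 2 groups (adjusted p = 0.157), with no filter (0.056), with voom (0.0619), with thinned reads (0.0767), by library totals (0.0511), without the 2 libraries with ribosomal RNA-like reads (0.172) and without WT replicate 2 or 3 or PGRN knockout replicate 1, 2 or 3 (0.0678 to 0.18). Sparc in PGRN knockout M1 did not pass in a fit of just the 2 groups (adjusted p = 0.112) and without WT replicate 2 or PGRN knockout replicate 1 or 3 (0.0608 to 0.0745). Its fall in M2 (-0.56 ± 0.15, adjusted p = 0.0151) did not pass without WT replicate 1 or 2 or PGRN knockout replicate 1 or 3 (adjusted p of 0.0533 to 0.0736).

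Fn1 (fibronectin, chr1:71585520-71653200) stood at 12776, 24913 and 18656 in WT M1, 17615, 14597 and 18912 in the PGRN and 28796, 46767 and 39648 in the 14-3-3ε knockout. Its M2 values were 47857, 78695 and 43957 in WT, 56475, 47705 and 57328 in the PGRN and 88390.2, 94909 and 92254 in the 14-3-3ε knockout. The PGRN knockout overlapped WT in both states (-0.10 ± 0.24 and -0.03 ± 0.24), and the 14-3-3ε knockout lay above WT in both. Fn1 rose by 1.06 ± 0.24 in M1 (adjusted p = 0.00796), and its difference in M2, 0.74 ± 0.24, did not pass (adjusted p = 0.0789). In M2 it passed without WT replicate 2 (adjusted p = 0.0181). When the fit held just WT and this knockout in M1, the rises of Thbs1, Thbs2, Fn1 and Sparc did not pass (adjusted p = 0.113, 0.0963, 0.0956 and 0.124). Sparc also did not pass without WT replicate 1 or knockout replicate 3 (adjusted p = 0.0741 and 0.051).

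Fstl1, a secreted follistatin-like protein, stood at 18956, 23484 and 19988 in WT M1 and 8613, 10366 and 8126 in PGRN knockout M1, which did not overlap. It fell by 1.21 ± 0.11 there, and its difference in M2 was -0.64 ± 0.11 (adjusted p = 1.65e-06 and 0.000661). Periostin (Postn), a matricellular protein, passed in no comparison of a knockout with WT in the fit of all libraries (smallest adjusted p = 0.131). For the PGRN knockout in M2 it passed in a fit of just the 2 groups (adjusted p = 0.0134).

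Small leucine-rich proteoglycans, which coat collagen fibrils, were represented by Bgn (biglycan), Dcn (decorin) and Lum (lumican). Bgn stood at 49011, 58455 and 49573 in WT M1, 34948, 43898 and 33267 in the PGRN and 78783, 67660.2 and 73118 in the 14-3-3ε knockout, with no overlap between genotypes. It fell in the PGRN knockout (-0.49 ± 0.12 in M1, -0.38 ± 0.12 in M2, adjusted p = 0.00627 and 0.0322) and rose in the 14-3-3ε knockout (0.49 ± 0.12 and 0.54 ± 0.12, adjusted p = 0.0106 and 0.0132). Bgn in PGRN knockout M1 did not pass in a fit of just the 2 groups (adjusted p = 0.0599), and in M2 it did not pass by library totals (adjusted p = 0.0586) and without WT replicate 1 or 2 or PGRN knockout replicate 1 or 3 (0.1 to 0.126). For the 14-3-3ε knockout, it did not pass in M1 in a fit of just the 2 groups (adjusted p = 0.0795), nor in M2 without WT replicate 3 or 14-3-3ε knockout replicate 1 (adjusted p of 0.0707 to 0.0739). With all libraries in the fit, Dcn and Lum passed in none of these comparisons. Lum passed for the PGRN knockout in M1 without WT replicate 1 (adjusted p = 0.0387) and in M2 in a fit of just the 2 groups (adjusted p = 0.027) and with voom (0.0276), and for the 14-3-3ε knockout in M1 with voom (adjusted p = 0.0273) and without 14-3-3ε knockout replicate 3 (0.0321). Dcn passed for the 14-3-3ε knockout in M2 without 14-3-3ε knockout replicate 3 (adjusted p = 0.0254). Lum counted 44.6 to 114 in WT M1 and 30.7 to 42.3 in PGRN knockout M1.

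In the PGRN knockout 2 microfibril protein genes fell steeply, while Fbn1, the gene of the backbone, did not pass. Mfap5 (chr6:122505845-122529290), a protein of the microfibril surface, stood at 232, 239 and 183 in WT M1, 14.3, 27.4 and 19.1 in the PGRN and 238, 361 and 343 in the 14-3-3ε knockout. Its M2 values were 239, 207 and 149 in WT, 29.2, 29 and 27.6 in the PGRN and 229, 395 and 306 in the 14-3-3ε knockout. The PGRN knockout was far below both other genotypes in each library, on 7, 11 and 41 reads in M1. Mfap5 was 10.6-fold lower than WT in M1 (-3.40 ± 0.25, adjusted p = 1.54e-07) and 6.63-fold lower in M2 (-2.73 ± 0.25, adjusted p = 1.8e-06). In the 14-3-3ε knockout it did not pass (0.51 ± 0.25 and 0.63 ± 0.25), and against the PGRN knockout it was 15-fold higher there in M1 (adjusted p = 1.76e-08).

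Mfap2 (chr4:141010418-141015984), another microfibril protein, was low in both knockouts. It stood at 1012, 693 and 695 in WT M1, 141, 192 and 149 in the PGRN and 276, 197 and 307 in the 14-3-3ε knockout, and in M2 at 575, 504 and 469 in WT, 123, 202 and 161 in the PGRN and 167, 132 and 179.7 in the 14-3-3ε knockout. Every knockout library lay below every WT library of its state. The differences from WT were -2.30 ± 0.21 and -1.69 ± 0.21 in the PGRN knockout and -1.62 ± 0.21 and -1.69 ± 0.21 in the 14-3-3ε knockout, in M1 and M2 (largest adjusted p = 0.000121). In M2 the knockouts did not differ from each other past the threshold (-0.00 ± 0.21).

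Fbn1 (fibrillin-1, the microfibril backbone) stood at 1637, 3178 and 2609 in WT M1, 2721, 2669 and 3086 in the PGRN and 4482, 5308 and 4771 in the 14-3-3ε knockout. The PGRN knockout overlapped WT and the 14-3-3ε knockout lay above it. Fbn1 rose by 1.02 ± 0.20 in 14-3-3ε knockout M1 and differed by 0.95 ± 0.20 in M2 (adjusted p = 0.00313 and 0.0109). Efemp2 (fibulin-4, needed to assemble elastic fibres) fell by 1.47 ± 0.10 in PGRN knockout M1, with -1.11 ± 0.10 in M2, and fell by 0.45 ± 0.10 in 14-3-3ε knockout M1 (adjusted p = 8.08e-08, 1.34e-06 and 0.00509). When the fit held just WT and this knockout in M1, the differences of Fbn1 and Efemp2 in the 14-3-3ε knockout did not pass (adjusted p = 0.0751 and 0.0933). Fbn1 in M2 did not pass without WT replicate 3 or 14-3-3ε knockout replicate 1 (adjusted p of 0.0543 to 0.0581). Eln, with at most 71 reads in any library, passed in no comparison with WT in the fit of all libraries, and for the PGRN knockout in M2 it passed with voom (adjusted p = 0.0246), without the 2 libraries with ribosomal RNA-like reads (0.0472) and without PGRN knockout replicate 1 (0.0115).

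Of 32 other matrix proteins, 15 fell and 1 rose in PGRN knockout M1, and 10 fell and 0 rose in M2, with medians of -0.52 and -0.34. Emilin1, an elastic fibre glycoprotein, led in both states (-0.72 ± 0.08 and -0.64 ± 0.08), followed by the proteoglycan Fmod (fibromodulin, -2.39 ± 0.25 and -2.08 ± 0.25), with a largest adjusted p of 4.61e-05. Loss of 14-3-3ε gave the opposite balance, with 14 higher and 2 lower in M1 and 7 and 1 in M2. Basement membrane genes were among its leading rises, with Nid1 (nidogen) at 1.36 ± 0.18 and 1.09 ± 0.18 and Col4a2 (a collagen IV chain) at 1.11 ± 0.19 and 0.84 ± 0.19 (largest adjusted p = 0.0154). In M1 12% of all genes rose and 9.31% fell, and in M2 3.32% and 3.37%. The calls of this list were not followed in the other runs, in which few 14-3-3ε calls of the members held.

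Lox, the oxidase that starts cross-links in collagen and elastin, stood at 10773, 18449 and 12798 in WT M1, 6786, 7316 and 6482 in the PGRN and 18014, 27440.4 and 29515 in the 14-3-3ε knockout. The PGRN knockout lay below WT, while the highest WT library passed the lowest of the 14-3-3ε knockout. Lox fell in the PGRN knockout (-0.99 ± 0.19 in M1, -0.68 ± 0.19 in M2, adjusted p = 0.00111 and 0.018) and rose in the 14-3-3ε knockout (0.84 ± 0.19 and 0.68 ± 0.19, adjusted p = 0.00684 and 0.0414). Lox in PGRN knockout M2 did not pass without WT replicate 2 or PGRN knockout replicate 1 (adjusted p of 0.0618 to 0.0621). For the 14-3-3ε knockout, it did not pass in M1 in a fit of just the 2 groups (adjusted p = 0.121), nor in M2 with thinned reads (adjusted p = 0.0529) and without WT replicate 1 or 3 or 14-3-3ε knockout replicate 1, 2 or 3 (0.0534 to 0.151). Its relative Loxl1 fell by 0.67 ± 0.11 in PGRN knockout M1 (adjusted p = 0.000285), and its other differences from WT, -0.14 ± 0.11, 0.05 ± 0.11 and -0.00 ± 0.11, did not pass.

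Pdgfra and Pdgfrb are the receptors for platelet-derived growth factors on stromal cells and pericytes. Pdgfrb stood at 4901, 5202 and 4218 in WT M1, 3599, 4492 and 3477 in the PGRN and 8822, 7846 and 7241 in the 14-3-3ε knockout, which lay above both. It rose by 0.74 ± 0.16 in M1, with 0.76 ± 0.16 in M2 (adjusted p = 0.00581 and 0.0114). Pdgfrb in M2 did not pass without WT replicate 3 or 14-3-3ε knockout replicate 1 (adjusted p of 0.0598 to 0.0647). Pdgfra was the 1 member that rose in the PGRN knockout, from 786, 812 and 846 in WT M2 to 1123, 1344 and 1069.8 (0.53 ± 0.14, adjusted p = 0.0141). That rise did not pass without WT replicate 1 or PGRN knockout replicate 2 (adjusted p of 0.052 to 0.0703), so that 0 members rose then.

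All 3 secreted regulators fell in PGRN knockout M1, and 0 passed in the 14-3-3ε knockout. Cxcl12, the chemokine that holds blood progenitors in the marrow, stood at 64627, 80154 and 62663 in WT M1 and 27783, 45285 and 23649.8 in PGRN knockout M1, wholly below it. It fell by 1.15 ± 0.25 in M1 (adjusted p = 0.00368), and its M2 groups overlapped (-0.38 ± 0.25, adjusted p = 0.335). Serpinf1 (pigment epithelium-derived factor, an inhibitor of vessel growth) differed by -1.11 ± 0.10 and -1.01 ± 0.10, and Timp3 (an inhibitor of metalloproteinases) by -1.44 ± 0.33 and -1.69 ± 0.33, in M1 and M2 (largest adjusted p = 0.00567). Timp3 lies within the Syn3 gene, and with the strand setting of the counting not stated, its reads could be shared.

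Signalling genes upstream of matrix production moved in both directions in the PGRN knockout. Of 18 TGF-β pathway genes and targets, 8 fell and 5 rose in M1, and 6 fell and 6 rose in M2. The smallest p-values in M1 were those of the targets Ctgf (-1.38 ± 0.13) and Cyr61 (-1.16 ± 0.13), the ligand Tgfb2 (-0.84 ± 0.11) and the inhibitor Smad7 (-0.77 ± 0.11), with a largest adjusted p of 0.000103. In M2 the ligand Tgfb1 rose by 0.44 ± 0.08 and the receptor Tgfbr2 rose by 0.68 ± 0.15 (adjusted p = 0.000732 and 0.00344). Of 8 PDGF and FGF ligands and receptors, Fgf7, Pdgfa, Fgfr2 and Fgfr1 fell in both states and 0 rose (differences between -1.65 ± 0.32 and -0.56 ± 0.16). In 14-3-3ε knockout M1, 6 TGF-β genes and 2 PDGF and FGF genes rose and 0 fell, and in M2 0 passed.

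Polarization divided the set evenly in WT. In M1 against M2, 10 members were higher, 10 lower and 14 did not pass, where 18.9% of all genes were higher and 20% lower. Among the 11645 genes that reached 5 CPM in at least 3 libraries, 3267 were higher and 3800 lower, beside 10 and 11 members. Those shares are larger than over all genes tested, so the members' counts are not read as an excess. A fit of just these 2 groups gave 8 members higher and 6 lower, with 2641 and 2577 of all genes. Scaling by library totals moved the median of all genes from -0.04 to -0.20 and the split to 6 higher and 13 lower. Over all genes that split was 2846 and 5482. Leaving out WT M1 replicate 2 and WT M2 replicate 3, with their ribosomal RNA-like reads, the members' split was 5 and 11. Over all genes it was then 3892 and 4371. The PGRN knockout had 5 higher and 14 lower, where 18% and 19.5% of all genes were, or 2 and 16 by library totals. By library totals, 2460 of all genes were higher and 5737 lower there. With the filter at 5 CPM it had 5 and 14 members, beside 3344 and 3782 genes. The 14-3-3ε knockout had 9 and 9, where 15.6% and 14.4% of all genes were, or 6 and 12 by library totals. By library totals, 2113 of all genes were higher and 4962 lower there. With the filter at 5 CPM it had 10 and 11 members, beside 2959 and 2994 genes.

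Lower in WT M1 than in WT M2 were collagen VI chains Col6a2 and Col6a3, adhesive glycoproteins, Lox and smooth muscle actin. Col6a3 stood at 1752, 3974 and 3718 in M1 and 9293, 16835 and 11094 in M2, a 4.06-fold difference (-2.02 ± 0.28, adjusted p = 4.01e-05). Fn1 differed by -1.60 ± 0.24, Thbs1 by -1.40 ± 0.28, Acta2 by -1.21 ± 0.12, Timp3 by -1.18 ± 0.33, Lox by -1.09 ± 0.19, Postn by -0.89 ± 0.30 and Fbn1 by -0.82 ± 0.20 (largest adjusted p = 0.0261). The states did not overlap for any of these 8 genes. They were chosen as the largest changes past the threshold, so this adds no support, and the share over all genes is not given. Timp3 did not pass in a fit of just the 2 groups (adjusted p = 0.071) and without WT M1 replicate 1 or WT M2 replicate 2 (0.0534 to 0.0563). Postn did not pass without WT M1 replicate 1 or WT M2 replicate 2 (adjusted p of 0.0998 to 0.137), Fbn1 did not pass in a fit of just the 2 groups (adjusted p = 0.0512) and Col6a2 did not pass in a fit of just the 2 groups (adjusted p = 0.0918) and without WT M1 replicate 1 (0.0524).

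Higher in WT M1 were Dcn (1.28 ± 0.36), Cxcl12 (1.18 ± 0.25), Loxl1 (1.08 ± 0.11), Efemp2 (0.97 ± 0.10), Col3a1 (0.90 ± 0.26), Pdgfra (0.84 ± 0.14), Mfap2 (0.61 ± 0.21) and Bgn (0.61 ± 0.12), with a largest adjusted p of 0.027. Of these, Dcn did not pass without the 2 libraries with ribosomal RNA-like reads (adjusted p = 0.0681) and Col3a1 did not pass by library totals (adjusted p = 0.0503), without the 2 libraries with ribosomal RNA-like reads (0.092) and without WT M1 replicate 2 or 3 (0.0512 to 0.0535). Mfap2 did not pass by library totals (adjusted p = 0.138), without the 2 libraries with ribosomal RNA-like reads (0.0658) and without WT M1 replicate 1 or WT M2 replicate 2 or 3 (0.0679 to 0.13). In all, 10 of the 20 members that differed between the states in WT passed in every alternative run. Both collagen I genes overlapped between the states (-0.04 ± 0.20 and 0.00 ± 0.18). In the PGRN knockout all 4 contractile genes were lower in M1, from -1.59 ± 0.12 for Acta2 to -0.71 ± 0.13 for Tpm2, as was Comp (-1.92 ± 0.27). In the 14-3-3ε knockout Dcn stood at 948, 1163 and 1546 in M1 and 174, 173 and 421 in M2, with no overlap and a difference of 2.35 ± 0.36 (adjusted p = 0.000107).

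**Figure D4:**
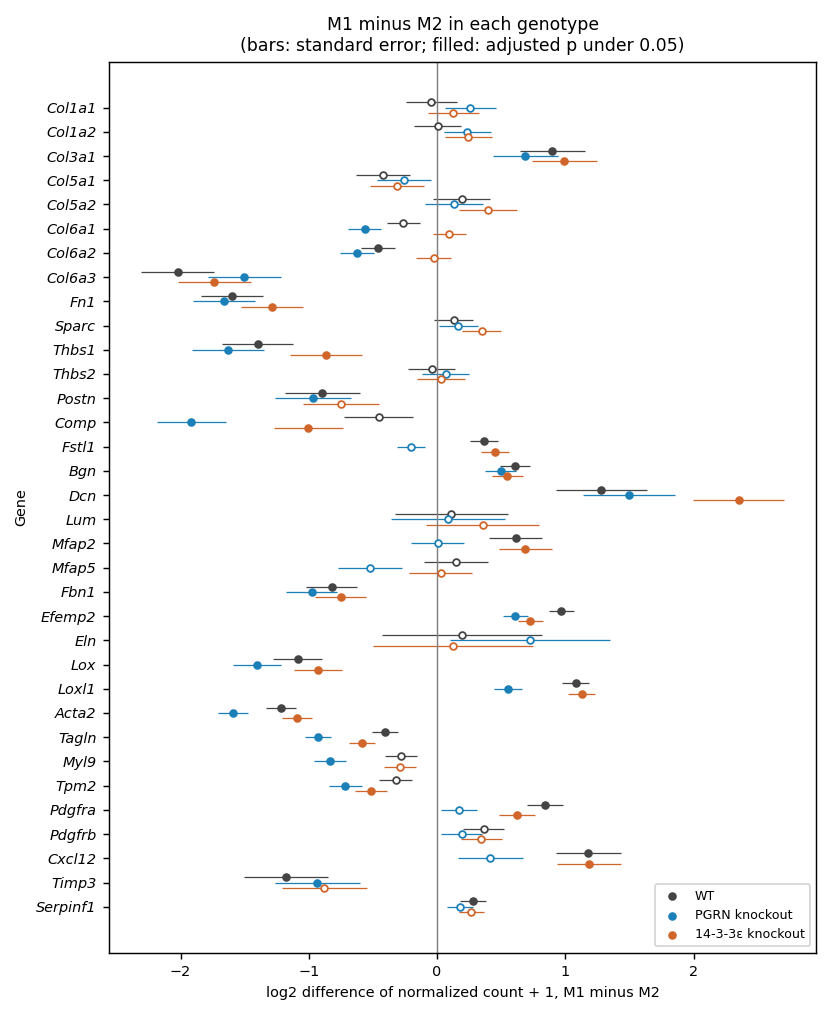
Log2 difference of M1 from M2 (horizontal axis) of each of the 34 genes in WT, PGRN knockout and 14-3-3ε knockout cells, with standard error bars; filled points passed the test. Col6a3, Fn1, Thbs1, Lox and Acta2 lie below 0 and Dcn, Loxl1, Efemp2 and Bgn above 0 in each genotype.

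Whether the effect of a knockout differed between M1 and M2 was tested in limma as an interaction. For the PGRN knockout 0 of 34 members passed, where 1.25% of all genes did. An unadjusted p under 0.05 was found for 10 members and for 2869 of all 21336 genes. For the 14-3-3ε knockout 0 passed, where 0.286% of all genes did, and 1 member and 2211 of all genes had an unadjusted p under 0.05. Comp came nearest, with an effect of PGRN loss that differed between the states by -1.46 ± 0.38, which did not pass (adjusted p = 0.0746). Counts for the PGRN knockout were 3 without PGRN knockout M1 replicate 2, 2 without WT M2 replicate 1, and 1 without WT M1 replicate 1 or replicate 2.

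Members did not all keep fixed proportions to each other. Col1a2 stood at 81.1 to 102 normalized counts per 100 of Col1a1 over all 18 libraries. Comp stood at 0.181 to 0.381 per 100 of Col1a1 in WT M1, 0.0141 to 0.038 in the PGRN and 0.0373 to 0.0717 in the 14-3-3ε knockout, so that neither knockout overlapped WT. Mfap5 stood at 0.136 to 0.271 per 100 in WT M1 and 0.0176 to 0.0322 in PGRN knockout M1. Acta2 gave 15.7 to 24.1 and 9.59 to 10.6 in M1, which do not overlap, but 33.5 to 56.5 and 36.1 to 37.6 in M2, which do. Fbn1, and Col6a1 in M2, went the other way. Fbn1 gave 1.91 to 2 in WT M1 and 3.13 to 3.48 in PGRN knockout M1, and 3.21 to 3.56 and 7.4 to 8.39 in M2. Col6a1 gave 18.7 to 25.8 in WT M2 and 39.4 to 42.9 in PGRN knockout M2. In M1 Col6a1 overlapped, with 17.5 to 22.3 and 21.5 to 26.2. These ratios are descriptions, without a test.

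**Figure D5:**
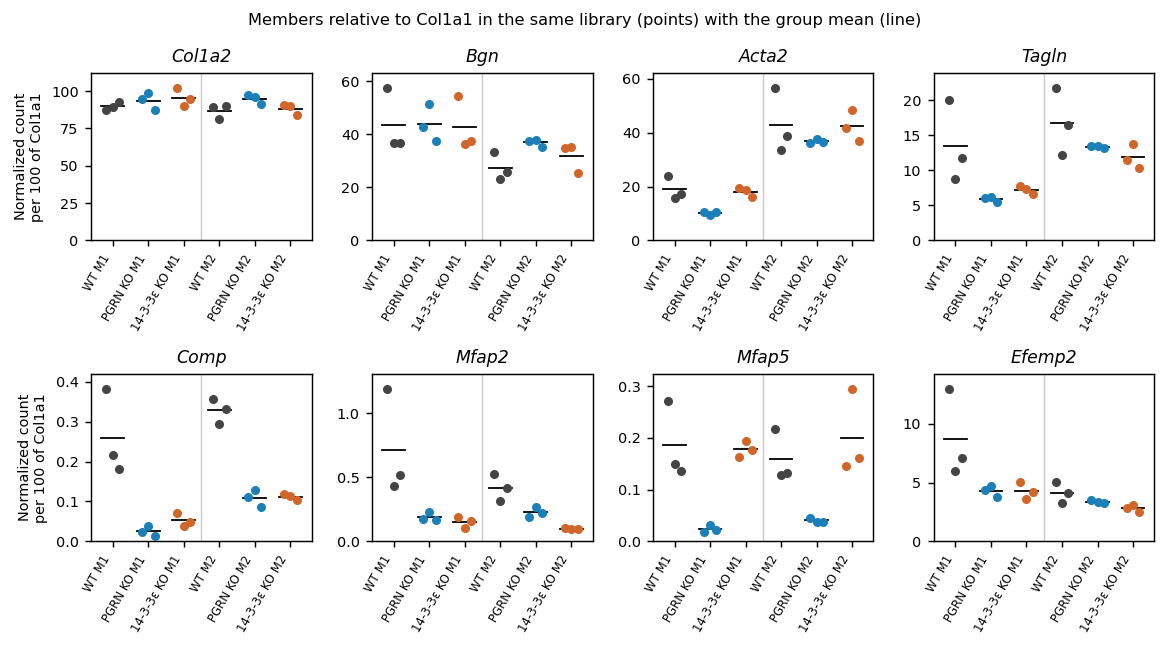
Normalized count per 100 of Col1a1 in the same library (vertical axis from 0, with its own range in each panel) for 8 genes by group, n = 3 libraries per group, with the group mean as a line. Col1a2 is nearly level across groups, while Comp, Mfap2 and Mfap5 differ by genotype.

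In some groups a library stood high or low for many members together. WT M1 replicate 1 was lowest of its group for 23 of 34 members and replicate 2 highest for 26. PGRN knockout M2 replicate 1 was lowest for 27. In PGRN knockout M1, replicate 2 was highest for 24, while replicates 1, 2 and 3 were lowest for 12, 9 and 13. The same order was not counted over all genes, so it is not shown to be particular to the members. Leaving out Eln, the highest library of WT M1 exceeded the lowest by a median of 1.46-fold over 33 members.

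Some markers of stromal progenitors and of bone cells fell with the set in the PGRN knockout. Against WT, 11.1% of all genes fell there and 14.2% rose in M1, and 8.3% and 11.1% in M2. Of 10 mesenchymal progenitor markers, 5 fell and 0 rose in M1 and 5 and 0 in M2. Among them, Prrx1 and Twist1, transcription factors of stromal progenitors, differed by -0.75 ± 0.09 and -1.03 ± 0.16 in M1 (largest adjusted p = 0.000263). The summed level of the 10 ran over 8437 to 9941 in WT M1, 3986 to 5453 in the PGRN and 6846 to 7500.2 in the 14-3-3ε knockout, and in M2 over 5657 to 5942, 3778 to 5109 and 5249 to 6116. Pdpn (podoplanin) sets the place of the 14-3-3ε knockout in these M1 sums, since it averaged 2980.1 in WT M1, 596 in the PGRN and 225 in the 14-3-3ε knockout (-2.33 ± 0.25 and -3.78 ± 0.25, largest adjusted p = 8.19e-06). Without it the sums were 5427 to 6781, 3398 to 4764 and 6651 to 7182 in M1, where the 14-3-3ε knockout overlapped WT instead of lying below it. In M2 they were 4996 to 5418, 3736 to 5055 and 5221 to 6077, where the PGRN knockout overlapped WT instead of lying below it. Pdpn was left out after its values were seen. Of 5 osteoblast markers, 4 fell in each state, with Alpl (alkaline phosphatase) at -2.38 ± 0.27 and -2.36 ± 0.27. Their sums ran over 13494 to 23163, 3044 to 4388 and 15458 to 22977 in M1 and 29302 to 44921, 5188 to 10746 and 20014 to 39755 in M2, in the same order. Under 14-3-3ε loss 1 mesenchymal marker rose and 1 fell in M1, 1 fell in M2, and 0 osteoblast markers passed in either state. Over all genes 12% rose and 9.31% fell in M1, and 3.32% and 3.37% in M2. Between WT M1 and M2, 4 mesenchymal markers were higher and 0 lower in M1, and 2 osteoblast markers were lower and 0 higher. Of all genes, 18.9% were higher and 20% lower. None of the markers of these lists was without a read in any group.

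Of 10 macrophage markers in the PGRN knockout, 5 rose and 1 fell in M1, and 5 rose and 0 fell in M2, led by Mertk, a receptor for dying cells (1.88 ± 0.18 and 2.08 ± 0.18). The 14-3-3ε knockout had 2 higher and 4 lower in M1 and 0 and 2 in M2. Their sums ran over 276340 to 453963 in WT M1, 464780 to 560506 in the PGRN and 206238 to 278445 in the 14-3-3ε knockout, and in M2 over 136141 to 166002, 287830 to 336872 and 75609.6 to 91932. Lyz2 (lysozyme) holds much of these sums. Without it they were 103409 to 154250, 159411 to 200700 and 147651 to 173637 in M1 and 57522 to 67684, 79204 to 100247 and 60257 to 67099 in M2. Between WT M1 and M2, 8 were higher and 0 lower in M1.

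Some endothelial markers rose in both knockouts. Of all genes, 14.2% rose in M1 and 11.1% in M2 in the PGRN knockout, and 12% and 3.32% in the 14-3-3ε knockout. Of 7 endothelial markers, 4 rose in M1 and 4 in M2 in the PGRN knockout, 4 and 3 in the 14-3-3ε knockout, and 0 fell. Their sums ran over 4471 to 9208, 8877 to 15127 and 11554 to 18028 in M1 and 2708 to 5917, 5999 to 10709 and 5923 to 10767 in M2. Of 6 pericyte markers, 0 passed in the PGRN knockout, and 2 in M1 and 1 in M2 rose in the 14-3-3ε knockout. Their sums ran over 1905 to 3170.5, 2636 to 4624 and 4234 to 7535 in M1 and 1934 to 3816, 2724 to 5131 and 4524 to 7412 in M2. Of 4 chondrocyte markers, 1 fell in PGRN knockout M1, where Acan had 0 reads, and of 4 adipocyte markers Fabp4 rose in the PGRN knockout in both states and fell in 14-3-3ε knockout M2, with Cfd at 0 reads in WT M2 and 14-3-3ε knockout M2. Sums ran over 847 to 1460.4, 354 to 712 and 435 to 874 for the chondrocyte and 1122 to 2029, 2432 to 3319 and 851 to 1535 for the adipocyte list in M1, and in M2 over 3030.2 to 3319.5, 1607 to 2236 and 807 to 1769 and over 1629.8 to 2253, 4280.1 to 4399 and 1005 to 1378. Of 8 neutrophil markers 1 fell in PGRN knockout M1 and 1 rose in 14-3-3ε knockout M1, and 0 passed in either knockout in M2. In M1 these calls are near the shares over all genes, 11.1% that fell and 12% that rose. All 6 cell cycle genes were lower in WT M1 than in WT M2. Of these, 2 fell in PGRN knockout M2 and 3 rose in 14-3-3ε knockout M1. The part of cell composition in the differences of the members was not tested.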

How the data were processed

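RNA of 18 libraries in 6 groups of 3 was measured by sequencing. Values were deposited on the log2 scale, after 1 was added to each normalized count. The authors used STAR, RSEM 1.3.1 and DESeq2, per the submitters' processing notes, whose role for each tool is not given, and strand setting and annotation are not given in the sources used here. Turned back from log2, values were whole multiples of 1 read in each library (within 0.1 read), which gave read counts and depth; depth differed 20.4-fold, so low genes of shallow libraries are the least precise. Groups were taken from the sample labels.

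Of 43309 genes, the 21336 that reached a normalized count of 1 in 3 or more libraries were tested in limma 3.58.1 (R 4.3.3; trend and robust) in a fit of the 6 groups with 11 comparisons and Benjamini-Hochberg adjustment. On simulated data for the PGRN knockout against WT in M1 (21406 genes, 200 of them changed), 80% of 2-fold and 95% of 4-fold changes were recovered and 34 unchanged genes called. Over the 9 comparisons of 2 groups, with 200 changed genes in each simulation, these were 78 to 88%, 95 to 98% and 8 to 34. Each gene was drawn on its own, so shifts shared by many genes of a library were not simulated. Gene positions and exon lengths came from GENCODE M21 (GRCm38), matching 42425 of 43309 IDs; the processing notes name another genome build, although the gene IDs are mouse ones. Tables were handled in Python 3.11.15 with numpy 2.4.6 and pandas 2.3.3.

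Members and the 14 gene lists were chosen with earlier results of these data known. For each knockout against WT and for M1 against M2 in WT, full statistics went to up to 8 members per direction. These were the largest changes past the threshold with at least 5 CPM, except Thbs2 in 14-3-3ε knockout M2, given without its standard error. The other comparisons are given mainly by counts and medians. Col1a1, Col1a2, Col3a1, Fn1, Acta2 and Comp were described in every library. Of other lists, up to 4 genes with the smallest adjusted p were named. Other members named with their values were chosen after these were seen. Alternatives were a pseudocount of 0.1, no filter or a filter at 5 CPM, a fit of the compared groups alone, voom, thinned reads, scaling by library totals, each library left out, and the replicate number as a block. Same-numbered libraries of the 14-3-3ε knockout in M1 and M2 deviated from their group means together (correlations of 0.53, 0.4 and 0.432 over genes), which counts as a pairing by the data; other groups compared showed no such pattern in all 3 numbers.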

Additional observations from a re-analysis of the deposited data

Results flagged for a closer look

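No member passed a test of whether a knockout's effect differed between M1 and M2. Of the 155 listed genes outside the set, 3 did in limma, over both knockouts and with 3 libraries per group. These 3 were not followed in the alternative runs. Over all genes tested, 1.25% passed for the PGRN and 0.286% for the 14-3-3ε knockout. The 14-3-3ε effect on Cd14, the LPS co-receptor, differed by 1.26 on the log2 scale (adjusted p = 0.0323): it averaged 5415 in WT and 10875 in the knockout in M1, and 637 and 539.8 in M2. The PGRN effect on Tgfbi, a TGF-β-induced matrix protein, differed by 1.74 (adjusted p = 0.0125), from 11130.3 in WT and 21627 in the knockout in M1 to 3732 and 2133 in M2. That on Ltbp3, which binds latent TGF-β, differed by -0.46 (adjusted p = 0.033), from 2004 and 1702 in M1 to 1541 and 1794 in M2.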

How the results depend on the processing

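Of 172 member and comparison pairs past the threshold, 116 passed with the same direction in every alternative run, and 0 changed direction. In the comparisons of PGRN knockout with WT, 15 of 20 members held in M1 and 14 of 20 in M2; against WT, the 14-3-3ε knockout kept 3 of 14 in M1 (Comp, Mfap2 and Pdgfrb) and 1 of 7 in M2 (Mfap2). Between M1 and M2, 10 of 20 held in WT, 14 of 19 in the PGRN and 13 of 18 in the 14-3-3ε knockout, and between the knockouts 26 of 30 in M1 and 20 of 24 in M2. With 14 members past the threshold in M1, the 14-3-3ε count was 3 in a fit of just the 2 groups, 22 without WT M1 replicate 2 and WT M2 replicate 3, and 10 to 22 with each library left out in turn, the highest without WT M1 replicate 2. In M2, with 7, it was 2 to 8, the lowest without WT M2 replicate 3. Calls over all genes moved as well. In M1, 2554 higher and 1987 lower became 220 and 165 in the fit of 2 groups. In M2, 709 and 718 became 321 and 256 without WT M2 replicate 3. The count of members whose PGRN effect differed between states, 0, became 1 with voom, 1 with thinned reads and 0 to 3 with each library left out. The cause was not tested. Other totals over both directions stayed within 1.5 times of their value, but the split by direction moved further in some: higher in WT M1, 10, became 6 by library totals and 5 without the 2 libraries with ribosomal RNA-like reads, and lower, 10, became 6 in a fit of the 2 groups. In the PGRN knockout, higher in M1, 5, became 2 by library totals and 8 in a fit of the 2 groups. The 1 rise of PGRN knockout M2 against WT became 0 without WT replicate 1 or knockout replicate 2.

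With the replicate block, 24 members passed in M1 and 20 in M2 for the PGRN knockout against WT, 17 and 8 for the 14-3-3ε knockout, and 20, 19 and 21 between states in WT, PGRN knockout and 14-3-3ε knockout. For the paired 14-3-3ε knockout, a block within genotype, chosen after seeing the data, gave 25 members in place of 18, with none lost. The same block gave 26 in place of 20 in WT and 23 in place of 19 in the PGRN knockout. All genotypes shared the estimate of spread in this fit, so whether the gain was particular to the paired knockout was not tested. Read depth limits Eln, Lum, Comp and Mfap5 most, which fell to 0, 10, 9 and 7 reads in their lowest library.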
